A study of Mus musculus with 1920 samples.

Results

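The genes described here are 9 integrin subunits of mouse microglia, Itgax, Itgam, Itgb2, Itgal, Itgb5, Itgav, Itgb1, Itga6 and Itga4, out of 48709 gene entries counted in the series. They were taken by symbol: each is the count table's entry whose Ensembl identifier carries that symbol in the GRCm38 annotation, and each symbol had 1 entry. The set was chosen with earlier results of these data known. All mice were of the CD1 strain and 16 weeks old. Untreated mice gave microglia of spinal cord, corpus callosum, facial nucleus, cerebellum, hippocampus and cortex, and the series' text says that these regions came from the same animals. Mice with a cut facial nerve gave the facial nucleus at day 3 and day 14 after the axotomy, for which the tissue label names the nerve and the source label the nucleus. Mice given cuprizone, a copper chelator that strips myelin, gave the corpus callosum at a demyelination stage and at a remyelination stage, with dose and duration not stated in the labels. Every group had 4 replicates by its labels, while the design text counts 3 to 4 animals for each condition; where replicates share a mouse, the p-values are too small, and the tests between regions treat the regions of an animal as independent. Each cell was sorted into a well and sequenced with Smart-seq2, which reads full-length cDNA without molecular identifiers, and 1644 of 1900 wells were kept as cells.

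Integrins are surface receptors made of 1 alpha and 1 beta chain, and the pair decides what the cell can bind. The beta chain Itgb2 is restricted to leukocytes and pairs with Itgam (CD11b), Itgax (CD11c) or Itgal (CD11a); the Itgam and Itgax pairs bind iC3b, the opsonin left by complement, and take part in the uptake of coated particles. In the brain CD11b is a standard surface marker of microglia, and CD11c is known as a marker of the microglia found around developing myelin, plaques and demyelinated lesions. Itgav pairs with Itgb5 to bind vitronectin and other proteins with an RGD motif, and Itgb1 pairs with Itga6 to bind laminin and with Itga4 to bind VCAM-1 and fibronectin.

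Because the sort stained for CD11b, the protein of Itgam was used to choose the cells, and its transcript is no independent check of the gate. The 12 microglia markers were all read in each of the 10 groups, and their summed level was 46751 to 50621 CPM (read counts scaled to the size of the library) in corpus callosum, 28201 to 37810 CPM at demyelination and 29646 to 38226 CPM at remyelination. Plates held pairs of groups, and an injured group never shared its plate with its untreated region, so plate and treatment cannot be told apart in any injured against untreated comparison. The summed depth per mouse and group was 5298853 to 19964472 counts. Remyelination cells were the poorest: 67.9% of wells were kept, with a median of 1517 detected genes and 18.4% spike-in reads, against 91.1%, 2926 genes and 8.50% in corpus callosum and 84.7%, 2137 genes and 10.8% at demyelination. The part of these differences in the results below was not tested.

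The 3 alpha chains that pair with Itgb2 lie on chromosome 7 in GRCm38, all on the plus strand. Itgam occupies 128062640 to 128118491 and Itgax 128129547 to 128150657, with 11055 bases between them, and Itgad, a further Itgb2 partner, follows 3718 bases after Itgax. Itgal lies 727501 bases before Itgam, at 127296260 to 127335138. Itgb2 is on chromosome 10 at 77530252 to 77565708, Itgb5 on chromosome 16 at 33829665 to 33949153, and Itgb1 on chromosome 8 at 128685654 to 128733200. Itga6 (71745616 to 71858416), Itga4 (79255426 to 79333123) and Itgav (83724397 to 83806916) are on chromosome 2. Of the 9 genes, 6 had a promoter window in the RefSeq table of GRCm38.p6. The windows of the neighbours Itgax and Itgam are shown because these adjacent genes are the alpha chains whose values follow in most detail; each runs over the 250 bases before the RefSeq start on the plus strand.
Itgax, chr7:128129300-128129549: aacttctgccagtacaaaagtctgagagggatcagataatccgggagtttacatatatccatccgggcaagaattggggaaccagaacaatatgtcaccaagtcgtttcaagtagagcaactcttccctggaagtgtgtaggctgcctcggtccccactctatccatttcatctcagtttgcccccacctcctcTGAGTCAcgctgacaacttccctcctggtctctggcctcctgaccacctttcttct
Itgam, chr7:128062390-128062639: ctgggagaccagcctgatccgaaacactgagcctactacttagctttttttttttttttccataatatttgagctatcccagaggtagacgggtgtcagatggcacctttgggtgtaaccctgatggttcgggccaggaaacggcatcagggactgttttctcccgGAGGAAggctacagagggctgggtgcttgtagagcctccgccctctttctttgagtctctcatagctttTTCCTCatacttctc
Capitals mark the only matches, on either strand, to the 2 motifs searched, GAGGAA (the core bound by the myeloid factor PU.1) and TGAGTCA (the AP-1 element). The motifs do not overlap each other. Itgax held 1 TGAGTCA, starting 56 bases before the RefSeq start, and no GAGGAA. Itgam held 2 GAGGAA matches, 84 and 15 bases before the RefSeq start, and no TGAGTCA. Among the members' windows not shown, Itgav also held 2 GAGGAA matches and Itgb1 held 1, while Itgb5 and Itga4 held neither motif. Among all 32817 windows of this length, 4.46% held TGAGTCA and 23.3% held GAGGAA. A match describes letters only and shows no bound factor.

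In untreated tissue the members fell into a high and a low set. Levels between genes are given per kilobase of exon, as the median over the 24 untreated sums. Itgb5 stood at 219 CPM per kilobase and Itgb2 at 164. Itgb1 stood at 62.0, Itga6 at 15.1 and Itgav at 12.9 CPM per kilobase. The lowest were Itgax at 1.70, Itgal at 0.959 and Itga4 at 0.353 CPM per kilobase. For Itgam the scale is uncertain, because 3450 of its 5024 exonic bases (68.7%) are shared with the same-strand gene Gm49368, and how reads in shared bases were counted is not given in the sources used here. Gm49368 held 1181 reads over all wells against 179662 for Itgam, 0.657% as many. Itgam came to 78.6 CPM per kilobase of all its exons and to 251 CPM per kilobase of the bases it shares with no other gene. Smaller shared stretches on the opposite strand touch Itgav (5.90% of exonic bases, Gm13684) and Itga4 (8.04%, Cerkl), whose reads cannot be told apart since Smart-seq2 keeps no strand.

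No member passed the test between untreated regions. Over the joint test of the 6 regions, edgeR's quasi-likelihood test with Benjamini-Hochberg adjustment called 0 of 9 members, beside 0.1% of the 22907 genes tested. Adjusted p-values ran from 0.669 for Itga4 upwards, 0 members were under an unadjusted 0.05, and DESeq2 called 0. The paired regions of each plate gave the same count: edgeR called 0 of 9 in cortex against hippocampus (0% of all genes), in cerebellum against facial nucleus (0.00437%) and in spinal cord against corpus callosum (0%), and 0 members were under an unadjusted 0.05 or called by DESeq2 in any of the 3. Mean levels spanned 619 CPM (spinal cord) to 777 CPM (corpus callosum) for Itgb5, 412 CPM (hippocampus) to 548 CPM (cerebellum) for Itgb2 and 342 CPM (spinal cord) to 474 CPM (hippocampus) for Itgam. In each of these 3 orders neighbouring regions overlapped between mice, although regions further apart need not. The Itgb5 values of hippocampus (735.6 to 756 CPM) all lay above those of spinal cord (517 to 711 CPM), a pair picked after the values were seen. How many of all genes separate in that pair was not counted. The joint edgeR test did not call Itgb5 (adjusted p = 0.975). Regional means ran from 193 to 258 CPM for Itgb1, from 142 to 212 CPM for Itga6 and from 113 to 177 CPM for Itgav. For the scarce members they ran from 2.33 CPM (facial nucleus) to 27.5 CPM (hippocampus) for Itgax and from 0.346 CPM (hippocampus) to 13.8 CPM (facial nucleus) for Itga4. On simulated data with 200 genes changed by 4 fold, the cortex against hippocampus fit recovered 138. The changed genes were drawn from well-expressed genes only, so this recovery does not cover scarce members such as Itgax, Itgal and Itga4.

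Itgax rose steeply in both cuprizone groups and stayed low elsewhere. In untreated corpus callosum the 4 mice had 3.38, 8.73, 24.7 and 11.6 CPM. At demyelination they had 537, 471, 565 and 574 CPM, and at remyelination 236, 590.3, 550.2 and 393 CPM. Every cuprizone mouse was thus above every untreated mouse of any region, whose highest value was 67.3 CPM in hippocampus. In 4 untreated sums Itgax was at 0, which allows 0.218 to 0.309 CPM at their depths (3 counts per sum, counting error only). The log2 fold change against corpus callosum was 5.45 ± 0.54 (SE, n = 4 per group) at demyelination, 43.8 fold, with an adjusted p of 7.91e-06 in edgeR's quasi-likelihood test. At remyelination it was 5.19 ± 0.53, or 36.5 fold, with an edgeR adjusted p of 1.58e-05. The stages did not differ from each other by this test (-0.26 ± 0.44, edgeR adjusted p = 0.908). In bulk sums more cells with the transcript and more transcript per cell cannot be told apart; the cells themselves are described further on. A single fit over all 10 groups gave nearly the same fold changes, 5.47 and 5.19, but adjusted p-values of 0.0578 and 0.0820 by edgeR, so neither passed there.

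**Figure D1:**
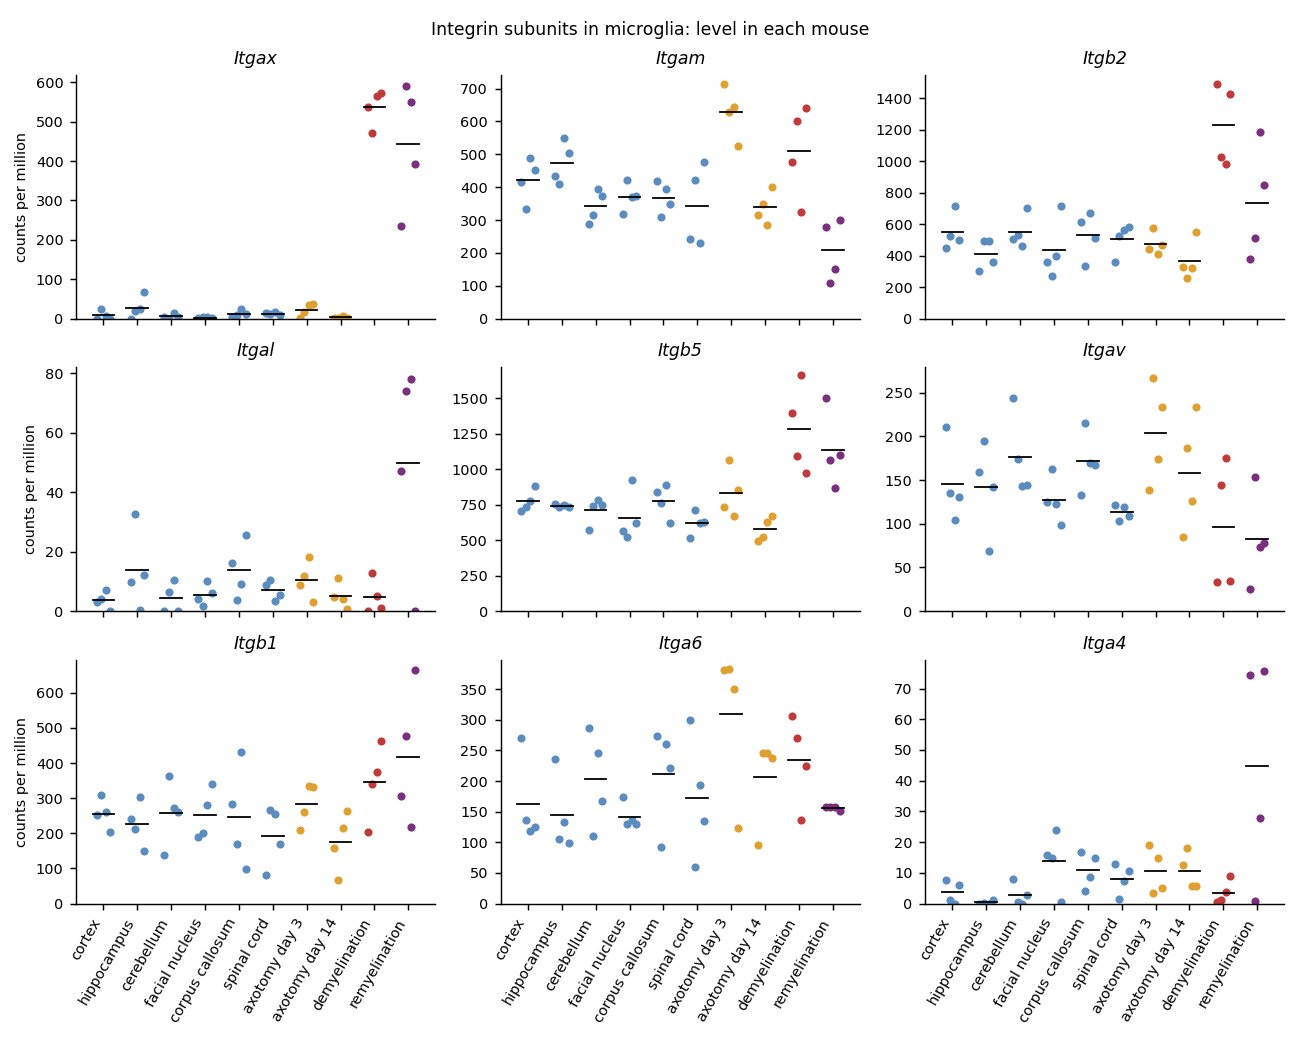
Level of the 9 integrin subunits in CPM on linear axes that start at 0, 1 point per mouse and a bar at the mean of 4 mice, for the 6 untreated regions (blue), axotomy (orange), demyelination (red) and remyelination (purple). Itgax lies at 236 to 590.3 CPM in the cuprizone mice and at or under 67.3 CPM in the others, while Itgam is lowest at remyelination.

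After axotomy Itgax was near the detection floor in some mice and not in others. The facial nucleus of untreated mice had 0.293, 3.95, 4.97 and 0.0955 CPM. At day 3 the values were 0.406, 15.9, 35.0 and 36.2 CPM, so that 3 of 4 mice lay above all untreated ones and 1 did not. At day 14 they were 2.07, 2.52, 7.02 and 0.0817 CPM. The log2 fold change at day 3 was 3.23 ± 1.64 with an edgeR adjusted p of 0.665, and at day 14 it was 0.33 ± 1.52 with an edgeR adjusted p of 0.9998. A test of the difference between the injuries, each against its own untreated region, gave 2.31 ± 1.40 for demyelination over day 3 (edgeR adjusted p = 0.351) and 4.92 ± 1.46 for remyelination over day 14 (edgeR adjusted p = 0.0641). The Itgax responses to cuprizone and to axotomy were therefore not shown to differ by edgeR; DESeq2 called the remyelination difference.

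Itgb2, the beta chain that Itgax needs to reach the surface, rose at demyelination by a smaller factor. Corpus callosum had 614, 336, 672 and 509 CPM, demyelination 1489, 1025, 984 and 1430 CPM, and remyelination 378, 513, 1188 and 849.9 CPM. All 4 demyelination mice lay above all 4 untreated ones, while the remyelination mice overlapped both groups. The log2 fold change was 1.18 ± 0.32 at demyelination, 2.27 fold, with an edgeR adjusted p of 0.0454, and 0.44 ± 0.31 at remyelination with an edgeR adjusted p of 0.522. This call sat at the threshold: leaving out any 1 of the 8 mice gave adjusted p-values of 0.0540 to 0.114 with a fold change of 1.03 to 1.31 on the log2 scale, so the call was lost without any 1 of them. Without cells in which 2 or more border macrophage, monocyte or dendritic markers were read, the fold change was 1.04 with an adjusted p of 0.142. At day 3 after axotomy Itgb2 had 443, 572, 409 and 470.1 CPM against 356, 269, 394 and 715 CPM in untreated facial nucleus, a log2 fold change of 0.14 ± 0.31.

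Itgam moved differently from its neighbour Itgax. Corpus callosum had 420.2, 308, 394 and 348 CPM and demyelination 476, 602, 326 and 639.9 CPM, overlapping groups with a log2 fold change of 0.45 ± 0.34 (edgeR adjusted p = 0.539). Remyelination had 279.98, 107, 151 and 299 CPM, below every mouse of both other groups. Against corpus callosum the log2 fold change was -0.81 ± 0.34 and against demyelination -1.25 ± 0.35, with edgeR adjusted p-values of 0.201 and 0.290, so neither passed the test. At day 3 after axotomy Itgam was at 713, 628, 644 and 526 CPM, above the 318, 423, 369.98 and 374 CPM of untreated facial nucleus and the 316, 350.2, 285 and 401 CPM of day 14. The log2 fold change at day 3 was 0.77 ± 0.22, with an unadjusted p of 0.00287 and an adjusted p of 0.376 by edgeR. From day 3 to day 14 it was -0.90 ± 0.23, with an unadjusted p of 0.000763 and an adjusted p of 0.254 by edgeR. DESeq2 called both of these axotomy differences, with adjusted p-values of 0.0244 and 0.0105.

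Itgal, the alpha chain of LFA-1 that binds ICAM molecules, was scarce in microglia. Group means in untreated regions lay between 3.54 and 13.7 CPM. Remyelination had 46.9, 73.8, 78.1 and 0.0 CPM, which is high in 3 mice and absent at this depth in 1, but 5 of 129 cells carried 99.7% of the 1745 reads and 1 cell carried 46.3%. The log2 fold change against corpus callosum was 1.85 ± 1.59 (edgeR adjusted p = 0.632).

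The share of transcript that each alpha chain gave among these 3 Itgb2 partners shifted in cuprizone. Per kilobase of exon shared with no other gene, Itgax made up 1.06% ± 0.718 (SD, n = 4) of the sum of Itgax, Itgam and Itgal in corpus callosum, 26.6% ± 6.97 at demyelination and 40.9% ± 18.5 at remyelination. The single mice ran from 0.261% to 2.00%, from 20.3% to 36.2% and from 21.0% to 60.8%. Itgam made up 98.1% ± 0.853, 73.3% ± 6.95 and 55.7% ± 20.5 in the same order. In the other 7 groups the mean share of Itgax was 0.195% (facial nucleus) to 1.75% (hippocampus). The size of the share depends on the length used for Itgam. Per kilobase of all exonic bases, Itgax made up 3.22% ± 2.16 in corpus callosum, 52.8% ± 8.52 at demyelination and 63.5% ± 15.9 at remyelination, so that it is the smaller or the larger part of the cuprizone sums by the choice of length. On both lengths every cuprizone mouse was above every corpus callosum mouse. These shares were not tested apart from the fits of the single genes.

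Itgb5 and Itgav, the chains of the vitronectin receptor, had values that moved apart in cuprizone, though neither passed the test. Itgb5 had 839, 762, 887 and 619.9 CPM in corpus callosum, 1395, 1090.3, 1661 and 974 CPM at demyelination and 1504, 1063, 869.5 and 1103 CPM at remyelination. The demyelination mice lay above all untreated ones, with a log2 fold change of 0.69 ± 0.23 that missed the threshold (edgeR adjusted p = 0.0853) and passed it in the fit of all 10 groups alone (0.72, edgeR adjusted p = 0.0345); at remyelination it was 0.56 ± 0.23 (edgeR adjusted p = 0.190). Itgav had 133, 216, 169.9 and 168 CPM in corpus callosum, but 33.2, 144, 175 and 34.2 CPM at demyelination and 24.8, 154, 73.8 and 77.9 CPM at remyelination. Its log2 fold changes were -0.86 ± 0.62 and -1.07 ± 0.62, with edgeR adjusted p-values of 0.507 and 0.403. The cuprizone mice were thus widely spread for Itgav, with 2 of 4 demyelination mice inside the untreated range and 2 far under it. After axotomy Itgb5 was at 731, 1063, 673 and 853 CPM at day 3 and at 491, 519, 626 and 673 CPM at day 14, groups that touched at the border without overlapping (672.668 against 672.654 CPM), with a log2 difference of -0.53 ± 0.23 and an edgeR adjusted p of 0.677.

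Itgb1, the beta chain of most matrix-binding integrins, and its alpha partners did not pass the test anywhere. Itgb1 had 284, 171, 431 and 97.7 CPM in corpus callosum, 203, 342, 374 and 462 CPM at demyelination and 306, 476, 218 and 665 CPM at remyelination, all overlapping. Its log2 fold changes were 0.48 ± 0.44 and 0.77 ± 0.44 (edgeR adjusted p = 0.624 and 0.389). Itga6, the laminin-binding alpha chain, had 381, 382, 350.4 and 123 CPM at day 3 after axotomy against 174, 129, 136 and 129.7 CPM in untreated facial nucleus, so 3 mice were high and 1 was under all of the untreated. The log2 fold change was 1.14 ± 0.38, with an unadjusted p of 0.00746 and an adjusted p of 0.430 by edgeR. In untreated tissue Itga6 was highest in the mouse numbered 1 in 6 of 6 regions (for the other 8 members the most frequent number was highest in 3 or 4); the labels do not say that equal numbers are the same mouse. Itga4, the alpha chain that binds VCAM-1, had 16.7, 3.98, 8.59 and 14.8 CPM in corpus callosum, 0.368, 1.15, 3.74 and 9.03 CPM at demyelination, and 74.5, 0.748, 27.9 and 75.7 CPM at remyelination, where 5 cells carried 95.2% of its 1584 reads. Remyelination exceeded demyelination by 3.67 ± 1.48 on the log2 scale, with an adjusted p of 0.290 by edgeR and 0.0265 by DESeq2.

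Counted over the members, edgeR called 2 of 9 at demyelination, both higher (Itgax and Itgb2), beside 5.16% of the 14057 genes tested, with 3.08% higher and 2.08% lower. At remyelination it called 1 of 9, Itgax, beside 3.12%, with 2.51% higher and 0.605% lower. The members' median log2 fold change was 0.45 and 0.56, while the median over all genes tested was -0.33 and -0.31. The counts were 0 of 9 for day 3 (0.145% of genes called, 0.14% higher and 0.00518% lower), for day 14 (0%), for day 14 against day 3 (0.0259%) and for remyelination against demyelination (0.0427%, with 0.0142% higher and 0.0285% lower). In these 4, edgeR put 2, 0, 2 and 3 members under an unadjusted 0.05, and DESeq2 called 1, 0, 1 and 1. For the difference between injury responses edgeR called 0 of 9 both times, beside 0.281% of genes (0.171% higher, 0.11% lower) and 0.846% (0.43% higher, 0.416% lower), with 1 and 3 members under an unadjusted 0.05 and 0 and 1 called by DESeq2. In the simulations the demyelination fit recovered 70 of 200 changed genes, the day 3 fit 91, and the test between injuries 4, so that last test had little power. The changed genes were well-expressed ones only, so recovery of scarce genes was not assessed. The cuprizone comparisons share the corpus callosum mice, and the axotomy comparisons the facial nucleus mice.

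**Figure D2:**
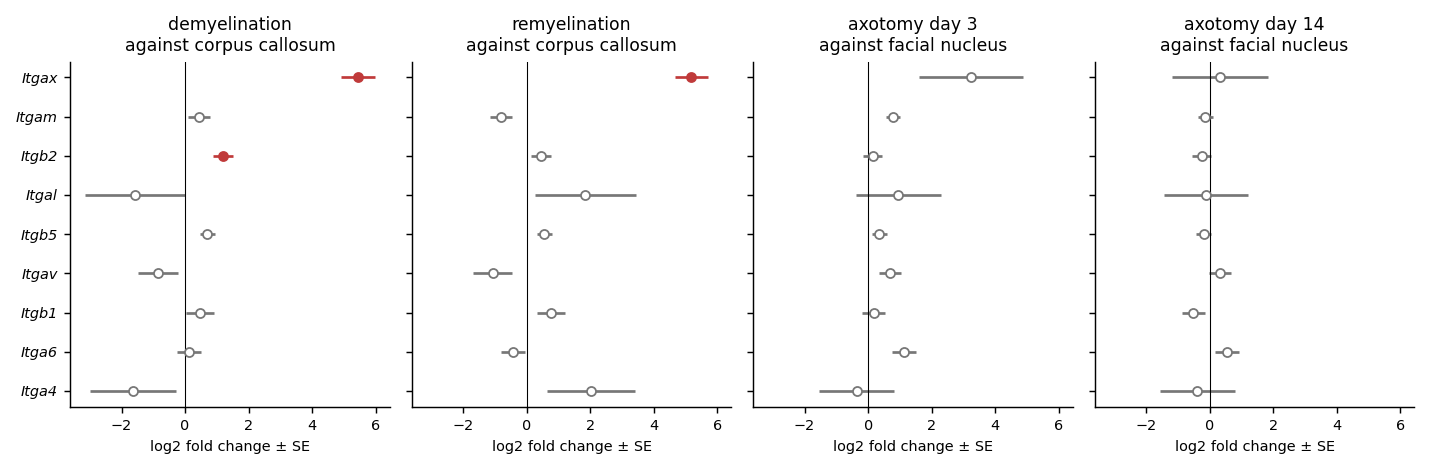
Log2 fold change of each member with its standard error in the 4 comparisons of injury against untreated tissue; filled red points passed an adjusted 0.05 in edgeR's quasi-likelihood test. Itgax is far to the right at 5.45 and 5.19 in the cuprizone panels, Itgb2 passed at demyelination only, and no member passed after axotomy.

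Groups that did not overlap between mice were Itgax, Itgb2 and Itgb5 at demyelination against corpus callosum, where this held for 23.4% of all genes tested and 5.16% were called. Itgax and Itgam did not overlap at remyelination against corpus callosum (17.7% of genes, with 3.12% called), and Itgam alone at remyelination against demyelination (4.23%, with 0.0427% called). Itgam did not overlap at day 3 against facial nucleus (5.09% of genes, with 0.145% called), and Itgam and Itgb5 at day 14 against day 3 (4.61%, with 0.0259% called). At day 14 against facial nucleus this held for 0 members, beside 3.91% of genes.

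To look within cells, every kept cell was thinned to 20000 reads and scored for at least 1 read of a member. Itgax was read in 47.4% ± 4.42 (SD, n = 4) of demyelination cells, with 41.3% to 51.2% in the 4 mice. At remyelination the mice had 27.6%, 30.3%, 41.7% and 38.7%, a mean of 34.6% ± 6.70. Corpus callosum had 2.22% to 4.76%, so neither cuprizone stage overlapped it. The highest mean among the other groups was 8.53% ± 5.05 at day 3 after axotomy, where the mice had 2.33%, 6.67%, 11.6% and 13.5%. In the 6 mice with 0 such cells, the 40 to 47 cells kept allow a share of up to 6.38% to 7.5%. None of the 20 wells without a cell held an Itgax read. In the cells with a thinned read the median was 14 reads at demyelination and 9 at remyelination, against 4 in the 6 positive corpus callosum cells. At full depth 94 of 161 demyelination cells, 60 of 129 remyelination cells and 10 of 173 corpus callosum cells had a read; the median depth was 471755, 383610 and 201705 reads per cell.

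Itgam was read in 75.04% ± 4.13 of corpus callosum cells, 56.9% ± 5.78 of demyelination cells and 35.8% ± 10.8 of remyelination cells, again thinned. The mice ran from 70.0% to 78.6%, from 51.2% to 63.0% and from 27.3% to 51.6%, so that both cuprizone stages lay under corpus callosum and overlapped each other in 1 remyelination mouse. The summed level at demyelination was nevertheless 511 CPM on average against 367.5 CPM in corpus callosum, so the share of cells and the level of the sum went opposite ways there. Itgb2 was read in 68.9% ± 4.68, 72.6% ± 1.48 and 49.6% ± 16.8 of cells, and Itgb5 in 91.3% ± 2.34, 83.1% ± 5.83 and 73.8% ± 4.79. Itgav was read in a smaller share of cells in each cuprizone mouse than in any corpus callosum mouse, 16.7% to 29.3% and 3.45% to 21.2% against 39.1% to 61.9%. Itga6 was read in 47.0% ± 13.5, 28.3% ± 6.31 and 23.8% ± 3.01 of cells, and Itgb1 in 36.9% ± 4.62, 38.6% ± 9.11 and 30.4% ± 14.3. Shares were not tested, and the lower number of detected genes in cuprizone cells moved with them. In wells without a cell, 2 of 20 held a read of Itgam, 6 of Itgb2, 6 of Itgb5, 1 of Itgav and 1 of Itga6, and 0 of Itgb1, Itgal and Itga4, with at most 17 reads per gene in all.

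**Figure D3:**
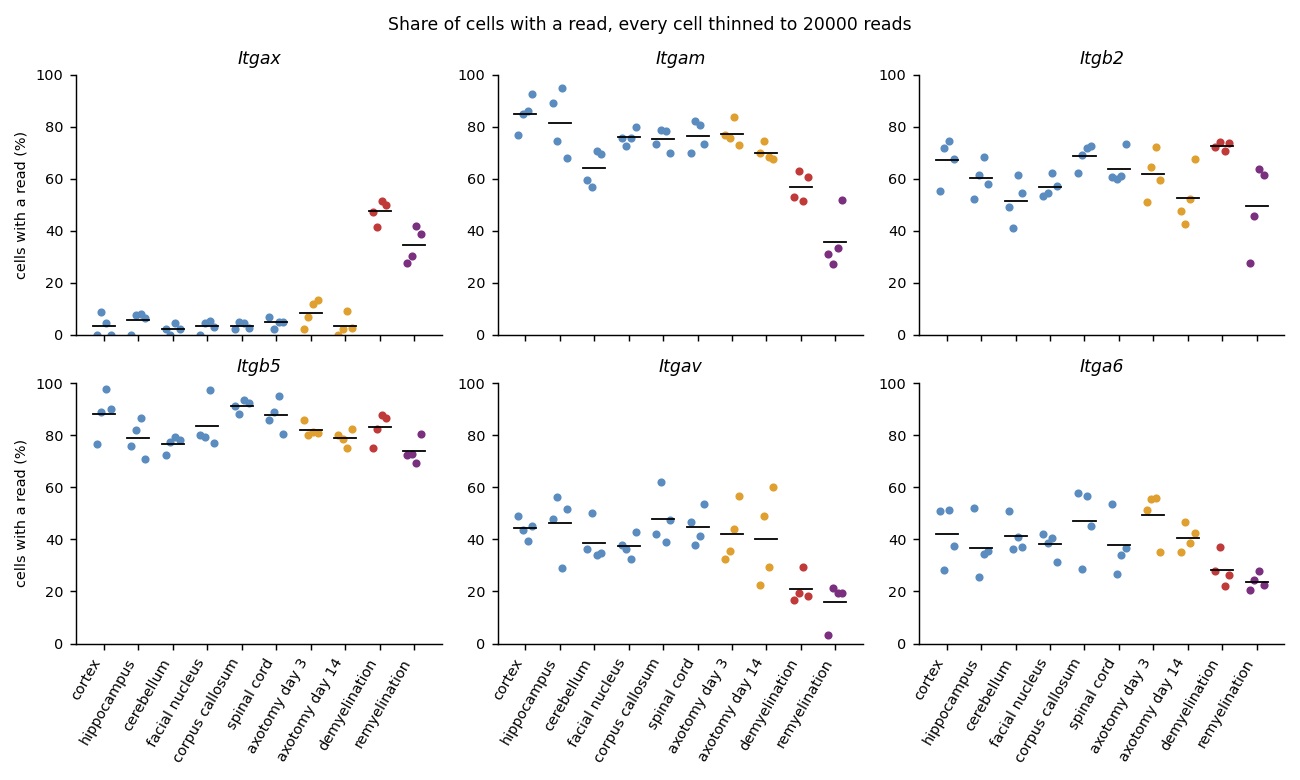
Share of cells with at least 1 read of 6 members after thinning every cell to 20000 reads, from 0 to 100%, 1 point per mouse with a bar at the mean of 4 mice, coloured as in the plot of levels. Itgax is read in 27.6% to 51.2% of cells in cuprizone mice, while the shares of Itgam, Itgav and Itga6 are lower there than in corpus callosum on average.

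Itgax and Itgam were found in overlapping sets of cells. In corpus callosum 73.3% ± 2.51 of cells had a read of Itgam alone, 1.73% ± 2.26 of both and 1.72% ± 1.16 of Itgax alone. At demyelination 30.9% ± 3.92 had both, 16.5% ± 4.64 Itgax alone and 26.0% ± 8.27 Itgam alone. At remyelination Itgax alone was the larger part of the Itgax cells, 23.6% ± 6.88 against 10.97% ± 3.54 with both. Of the cells with Itgax, 60 of 76 (78.9%) at demyelination and 28 of 45 (62.2%) at remyelination also had a read of the beta chain Itgb2, which was read in 72.7% and 50.4% of all cells of those groups. Of the cells with Itgav, 88.2% at demyelination, 90.5% at remyelination and 87.8% in corpus callosum had Itgb5, which was read in 83.2%, 73.6% and 91.3% of all cells. Of the cells with Itga6, 47.8%, 38.7% and 40.2% had Itgb1, which was read in 39.1%, 30.2% and 37.0% of all cells. A cell scored without a read can still carry the transcript.

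**Figure D4:**
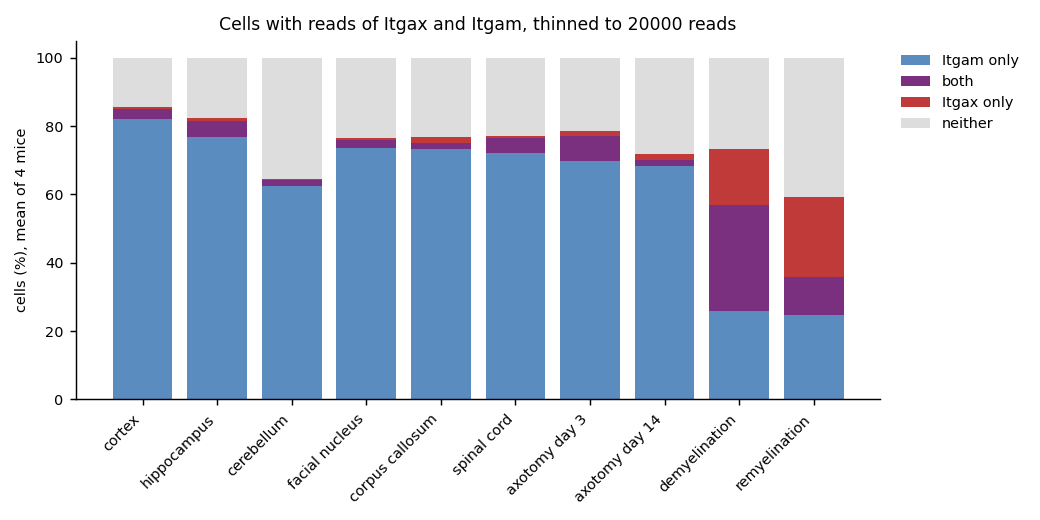
Stacked mean shares, over 4 mice, of thinned cells with reads of Itgam alone (blue), both (purple), Itgax alone (red) or neither (grey) in the 10 groups, from 0 to 100%. Itgam alone makes up 62.4% to 82.2% of cells outside cuprizone and 26.0% and 24.8% in the demyelination and remyelination groups.

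Cells with and without a thinned Itgax read were compared within the same mice, which was possible only in the cuprizone groups, the others having 0 to 5 positive cells per mouse. The classes held 17, 19, 21 and 19 positive cells per mouse at demyelination and 8, 10, 15 and 12 at remyelination. Leaving Itgax out, edgeR called 0 of 4620 genes at demyelination and 0 of 3854 at remyelination (0% in both), with 145 and 112 genes under an unadjusted 0.05, and DESeq2 called 2 and 26. On simulated data with 200 genes changed by 4 fold, these fits recovered 65 and 17, so most differences even of that size were missed. Those changed genes were drawn from the well-expressed ones only, so scarcer genes were not covered. The 0 calls therefore do not show that the classes are alike. Of the 6 members with enough reads, Itga6 at demyelination was the only one under an unadjusted 0.05: positive cells had 264, 211, 204 and 164 CPM and negative cells 43.8, 151, 32.5 and 107 CPM, higher in 4 of 4 mice, with a log2 fold change of 1.56 ± 0.61 and an edgeR adjusted p of 1. At remyelination its level was lower in the positive cells of 4 of 4 mice (-1.10 ± 1.13, edgeR adjusted p = 0.9996), while its share of cells was higher on average, 28.3% against 21.1%, and in 2 of 4 mice.

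By share of cells, Itgb1 was read more often in Itgax-positive cells in 4 of 4 demyelination mice (48.4% ± 9.67 against 29.8% ± 11.03), and Itgb2 in 4 of 4 remyelination mice (61.5% ± 7.89 against 44.4% ± 21.6). Of the 16 pairs of member and group compared by share, these were the 2 with a higher share in 4 of 4 mice. The same count was not made over all genes, so these 2 cannot be read as particular to the members. The levels did not show it: Itgb1 at demyelination had a mean of 277 CPM in both classes (log2 fold change 0.17 ± 0.45, higher in 2 of 4 mice), and Itgb2 at remyelination was higher in 2 of 4 mice (0.53 ± 0.60). Itgb1 at remyelination had a higher share in 2 of 4 mice. Tmem119, a marker of homeostatic microglia, was read less often in positive cells in all 4 mice of both groups, in 37.7% ± 13.1 against 49.7% ± 12.1 and in 15.6% ± 12.05 against 34.5% ± 9.80. P2ry12, another such marker, was higher in the positive cells of 1 of 4 mice in each group, with 60.2% ± 19.7 against 63.9% ± 14.3 at demyelination and 41.9% ± 7.77 against 55.3% ± 9.84 at remyelination. The sum of the full microglia marker list did not follow Tmem119 at demyelination. Its mean was 23147 CPM in positive and 23782 CPM in negative cells, lower in the positive cells of 2 of 4 mice. At remyelination this sum was lower in the positive cells of 4 of 4 mice, 19772 against 25667 CPM on average. The classes differed in quality at remyelination, where positive cells had 2019 detected genes and 14.4% spike-in reads on average over mice, and negative cells 1319.5 genes and 25.4%. At demyelination the values were closer, 2171.5 against 2009 genes and 9.77% against 13.1% spike-in reads. The part of quality in these differences was not tested.

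**Figure D5:**
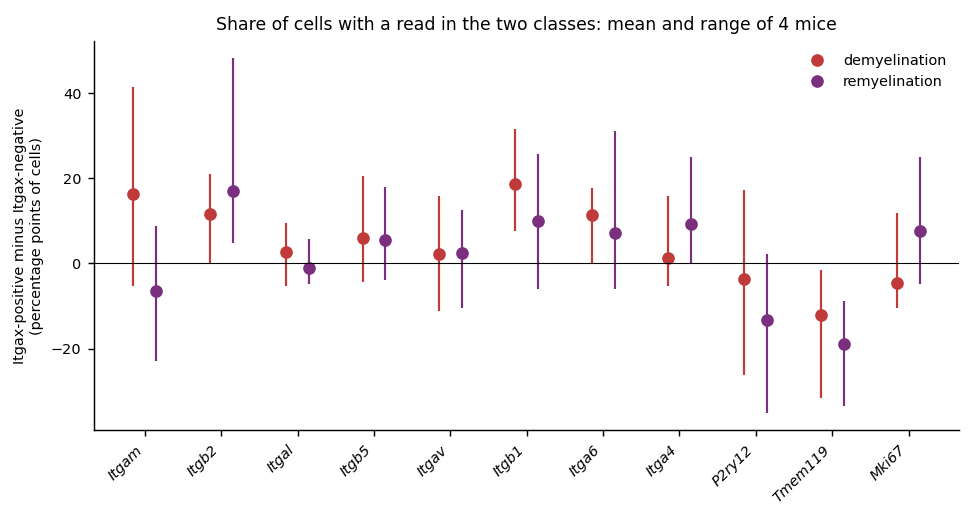
Difference in the share of cells with a read, Itgax-positive minus Itgax-negative, in percentage points for 8 members and 3 other genes; points are means of 4 mice and lines the range over mice, red for demyelination and purple for remyelination. Tmem119 lies under 0 with its whole range in both groups, Itgb1 above 0 at demyelination and Itgb2 above 0 at remyelination.

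Because CD11c is also a dendritic cell marker, markers of other cells are given beside Itgax. The 10 dendritic cell markers summed to 58.9 to 132 CPM in corpus callosum, 3.95 to 40.5 CPM at demyelination and 0.282 to 66.7 CPM at remyelination. The demyelination mice all lay under the untreated ones, and 1 of the 10, Klrd1, was called lower there. Clec9a, Cd209a and Klrd1 were at 0 in both cuprizone groups. Clec9a was also at 0 in cortex, hippocampus, cerebellum and spinal cord, and Cd209a in cortex. Of the 10, 7 were read at demyelination and 6 at remyelination. Zbtb46 had a mean of 18.1 CPM in corpus callosum, 0.417 CPM at demyelination and 14.7 CPM at remyelination. Ciita had 5.77, 9.16 and 8.36 CPM in the same order. These means rest on few cells with a read, 13, 1 and 3 for Zbtb46 and 11, 1 and 5 for Ciita. The 8 border macrophage markers summed to 5.69 to 15.2 CPM in corpus callosum, 13.05 to 91.0 CPM at demyelination and 186 to 392 CPM at remyelination. Lyve1 was at 0 in both cuprizone groups, and also in hippocampus and facial nucleus. Cd163 was at 0 at remyelination, and also in cerebellum and spinal cord. Mrc1 had a mean of 2.29 CPM in corpus callosum, 0.0361 CPM at demyelination and 41.7 CPM at remyelination, there in 5 cells. Ms4a7 was called higher at remyelination (log2 fold change 8.94 ± 1.82, edgeR adjusted p = 0.00972). The monocyte markers summed to 14.3 to 170 CPM, 564 to 2119 CPM and 0.845 to 322 CPM, but Fn1, which sits in that list, alone had a mean of 1216 CPM at demyelination, while Ly6c2 was at 0 in both cuprizone groups. Within demyelination, the dendritic cell markers summed to 17.6, 229, 45.2 and 5.26 CPM in thinned Itgax-positive cells of the 4 mice. Negative cells had 0.0, 14.8, 5 and 0.0 CPM, so the sum was higher in the positive cells of 4 of 4 mice. The endothelial markers were also higher in 4 of 4, with 112, 284, 102 and 150 CPM against 23.7, 55.6, 85.0 and 108 CPM. The pattern was thus not particular to the dendritic list, although no further list was higher in all 4 mice. The part of dendritic cells in the Itgax signal was not tested. At remyelination the dendritic cell markers summed to 0.0, 15, 6.67 and 112.5 CPM in positive and 0.0, 43.5, 81.0 and 5.26 CPM in negative cells. Without cells that had 2 or more border macrophage, monocyte or dendritic markers read, the log2 fold change of Itgax was 5.93 at demyelination and 5.83 at remyelination. This filter kept 94 of 173 corpus callosum cells, 122 of 161 demyelination cells and 104 of 129 remyelination cells. It thus took the largest part from the untreated reference. Since it counts any read of these markers, Fn1 included, it does not single out dendritic cells. Of the microglia markers, edgeR called 7 of 12 lower and 1 higher at demyelination and 5 lower and 1 higher at remyelination; Tmem119 fell by 2.98 and 2.76 and P2ry12 by 1.81 and 1.95 on the log2 scale, and Trem2 was the 1 that rose.

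The other integrin subunits stayed at low levels and none was called. Of 12 further alpha chains, 9 were tested in the cuprizone fit and 11 in the axotomy fit, and of 6 further beta chains 4 and 6, with 0 called by edgeR in all comparisons. Itga9 was the most abundant alpha chain among them in corpus callosum at 74.2 CPM ± 21.6 (SD, n = 4), and Itgb3, the other common partner of Itgav, the most abundant beta chain at 43.9 CPM ± 21.1; both were picked after their values were seen. Itgad, the gene next to Itgax, had 3.73 CPM ± 1.83 in corpus callosum and 6.59 CPM ± 4.61 at demyelination.

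Genes that integrins signal through rose in part. Of 20 kinases and adaptors, edgeR called 4 at demyelination, all higher, beside 3.08% of all genes called higher: Tyrobp and Fcer1g, the ITAM adaptors that Itgb2 integrins use in myeloid cells, and the small GTPases Rac1 and Rhoa. Tyrobp had 1475, 1201, 2150.2 and 1123 CPM in corpus callosum, 9013, 8185, 8439 and 7413 CPM at demyelination and 5541, 4592, 7215 and 4978 CPM at remyelination, without overlap, with log2 fold changes of 2.45 ± 0.19 and 1.91 ± 0.19 (edgeR adjusted p = 1.13e-06 and 1.40e-05). At remyelination 4 of 20 were called, again all higher, beside 2.51% of all genes: Tyrobp, Fcer1g, Rac1 and Cdc42. The median of the list was nevertheless -0.06 and -0.15 on the log2 scale, beside -0.33 and -0.31 over all genes. Fcer1g rose by 1.76 ± 0.20 and 1.73 ± 0.20, and Rac1 by 1.42 ± 0.21 and 1.23 ± 0.21. For Tyrobp and Fcer1g the responses to cuprizone and axotomy differed: the edgeR test between demyelination and day 3 gave 2.08 ± 0.25 and 1.48 ± 0.27 (adjusted p = 4.59e-06 and 0.00368). At day 3 Rac2, a GTPase of blood cells, was called, at 607, 454, 542 and 494 CPM against 196, 176, 244 and 139.6 CPM (log2 fold change 1.48 ± 0.27, edgeR adjusted p = 0.0260), and it was lower again at day 14 than at day 3 (-1.65 ± 0.27, edgeR adjusted p = 0.0445).

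Of 25 genes of integrin activation and the adhesion complex, such as the talins and kindlins, 24 were tested in the cuprizone fit and edgeR called 0 at demyelination (5.16% of all genes were called) and 2 at remyelination (3.12% of all genes), Skap2 higher (1.11 ± 0.29) and Parva lower (-10.25 ± 2.58). Its median was -0.06 and -0.02. Of 26 ligands 15 were tested and 3 called at each stage. Spp1, the RGD protein osteopontin, had 15.4, 43.2, 30.5 and 4.70 CPM in corpus callosum, 27793, 14731, 16825 and 22665 CPM at demyelination and 4671, 5891, 22003 and 9867 CPM at remyelination, rising by 9.75 ± 0.80 and 8.80 ± 0.77 on the log2 scale. Fn1, fibronectin, rose by 7.77 ± 1.32 and 4.37 ± 1.13, with 562 to 2090.45 CPM at demyelination and 0.564 to 309.8 CPM at remyelination. Lama2 fell at demyelination and F11r at remyelination. The ligands' median was -0.95 and -0.96. Of the surface partners 5 of 12 were called at each stage, all higher, beside 3.08% and 2.51% of all genes called higher, with a median of 0.65 and 0.83. By smallest p-value these were led by Cd63, Cd9, Bsg and Trem2 at demyelination and by Cd63, Cd9, Plaur and Trem2 at remyelination. The tetraspanin Cd63 rose from 71.5 CPM ± 33.2 (SD, n = 4) to 1235 CPM ± 183 and 1553 CPM ± 438, and Cd9 from 713 CPM ± 154 to 3163 CPM ± 559.9 and 2765 CPM ± 483. Cd63 was also the only surface partner called at day 3 after axotomy, with a log2 fold change of 2.33 ± 0.46 (edgeR adjusted p = 0.0495).

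Over the 40 sums of mouse and group, the genes whose log2 level followed Itgax most closely, among 7252 with a mean of at least 20 CPM, were Fis1, Ctsz, Ftl1, Spp1, Aldoa, Cd9, Eef1a1, Fth1, Actb and Ctsl, with Pearson's r from 0.88 to 0.84. Ctsz and Ctsl are lysosomal proteases, Ftl1 and Fth1 the ferritin chains and Aldoa a glycolytic enzyme. Ctsz had 2767 CPM ± 638 (SD, n = 4) in corpus callosum, 12281 CPM ± 1074 at demyelination and 6998 CPM ± 1058 at remyelination, and Ftl1 195 CPM ± 39.4, 1214 CPM ± 106 and 1084 CPM ± 215. Those following Itgam were Jak3, Mff, Sparc, Pmepa1, Strn, Cul2, Man1b1, Phka2, Nectin2 and Rnf10, with r from 0.75 to 0.62. Sparc, a secreted matrix protein, had 4702 CPM ± 183, 8025 CPM ± 1401 and 2660.2 CPM ± 715. Among the members Itgax correlated with Itgb5 (r = 0.67) and Itgb2 (r = 0.58) and not with Itgam (r = -0.19). These correlations describe 40 sums that share plates, mice and depth within groups, and carry no test.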

How the data were processed

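Single microglia and 20 wells without a cell were sequenced on 5 plates. The authors deposited unnormalized read counts, 1 whole number for each gene in each well, made with STAR 2.5.2b and featureCounts 1.5.1 on GRCm38, per the submitters' processing notes; the sources used here name no annotation release, strand or overlap setting. A well was kept with at least 20000 gene counts, 500 genes, under 25% mitochondrial and under 50% spike-in reads. All 1920 columns matched a sample title. Counts were summed per mouse and group (40 sums) and tested with edgeR 4.0.16 (TMM, low-count filter of 10 and 15, quasi-likelihood, robust), in 4 fits: untreated regions, axotomy, cuprizone, and both injuries, with Benjamini-Hochberg adjustment over all genes at 0.05. DESeq2 1.42.0, other scalings, cell filters, fits and leave-one-out fits were alternatives. CPM is TMM-scaled. Itgax-positive cells were compared with the mouse as a block. The fits were tested on simulated data with the changes placed in well-expressed genes only. The 9 members are always named; pathway lists are given by counts with up to 4 called genes; the 10 genes most like Itgax and Itgam are named. Members and lists were chosen with earlier results of these data known. The members' positions and exons are those given in the count table. Their positions match GENCODE vM21 except for Itgb5, which ends at 33949338 there. Neighbours come from GENCODE vM21, promoters from RefSeq, both GRCm38.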

Additional observations from a re-analysis of the deposited data

Results flagged for a closer look

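In 6 of the 90 sets of 4 mice (9 members in 10 groups), 1 mouse stood far from the other 3, with a gap to the nearest above Dixon's 95% critical share of the whole range. Chance alone gives about 1 in 20 such sets. Itga6 accounted for 5 of them: a high mouse in cortex (269 CPM) and in facial nucleus (174 CPM), both numbered 1, and a low mouse at day 3 (123 CPM), day 14 (95.8 CPM) and remyelination (151 CPM, where the whole group spans 151 to 158 CPM). The last was Itga4 in 1 hippocampus mouse at 1.28 CPM, with the others at or under 0.104 CPM.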

How the results depend on the processing

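The rise of Itgax in cuprizone passed edgeR's threshold in 19 of 20 fits at demyelination, the reported one included (log2 fold change 5.11 to 6.05) and in 19 of 20 fits at remyelination (4.57 to 5.83), the exception each time being the fit of all 10 groups. The count of members called at demyelination dropped from 2 to 1 with DESeq2, with upper-quartile scaling, with cells thinned to 20000 reads, without cells with 2 or more other myeloid markers, and without any 1 of the 8 mice (1 to 1), leaving Itgax; Itgb2 was called in 8 of 20 fits. With all 10 groups in the fit the 2 called at demyelination were Itgb2 and Itgb5, and the count was 0 at remyelination and 1, Itgam, at remyelination against demyelination. With DESeq2 it was 1 at day 3, at day 14 against day 3, at remyelination against demyelination, and between the remyelination and day 14 responses. Between Itgax-positive and negative cells DESeq2 called 2 genes at demyelination and 26 at remyelination; leaving out mice gave 0 to 1 at demyelination. The uncalled Itgax difference of spinal cord and corpus callosum, 0.04 on the log2 scale, changed sign in several fits. It did so with upper-quartile scaling (-0.0027), thinned cells (-0.021) and without cells with 2 or more other myeloid markers (-0.20). On leaving out mice it ran from -0.27 to 0.64. The Itgax difference of day 14 and facial nucleus, 0.33, became -1.09 without cells with 2 or more other myeloid markers. On leaving out mice it ran from -0.58 to 0.98. The cause of these changes was not tested. Against TMM, DESeq2 moved the members' fold changes by a median of -0.24 at demyelination and -0.16 at remyelination, and upper-quartile scaling by -0.19 and -0.15. Of 270 recomputed shares of cells, 136 moved by more than the spread between mice. With the replicate block, 2 members and 447 of 14057 genes were called at demyelination (725 without it), 1 member and 320 genes at remyelination (438), and 104 genes in the remyelination and day 14 interaction (193); the block changed no call of a member. In the joint test of regions the block gave 39 genes (23 without it). The numbers were not taken as pairs in the main fits. No correlation of same-numbered samples passed 0.1, which does not show that they are unpaired. In the 12 pairs of untreated regions it was above 0 throughout (r from 0.00999 to 0.047), and 11 of 12 matched best with their own number. The regions of each such pair also shared a plate, and whether equal numbers mark the same animal was not tested. In the 24 pairs with an injured group r ran from -0.0307 to 0.0349, and 7 matched best with their own number. Depth limits the scarce members: 0 reads would allow up to 0.150 to 0.566 CPM over the 40 sums, and Itgal and Itga4 at remyelination rest on few cells.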
